A study of Bos taurus with 6 samples.

Results

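Interleukins and their receptors were examined in cells of bovine endometrium, the lining of the uterus, sorted into a side population (SP) and a main population (MP). The genes were all rows whose symbol begins with IL and a digit and ends after an optional run of letters and digits, a rule that takes in ligands, receptor chains, decoys and binding proteins. It found 83 of 34733 named genes, each listed in all 6 libraries. Both populations came from Bos taurus uteri in the luteal phase collected at slaughterhouses. A collagenase digest of intercaruncular endometrium, freed of its luminal epithelium, gave a stromal cell preparation that was stained with Hoechst 33342 at 10 µg/mL. SP cells (3 libraries) pump this DNA dye out, and MP cells (3 libraries) keep it, with verapamil at 50 µM used to block the pump. Propidium iodide served to exclude dead cells in both, no genotype or further agent is named, and the age of the animals is not given. The labels do not say whether replicates are separate animals. The column names give SP and MP the same numbers after the word Stroma, and whether these mark animals shared by both groups is not stated. If replicates are not separate animals, the spread that p-values rest on, which is only that between these samples, may be technical. Per the file headers, micro stands in the column names of MP and not in those of SP; a difference in handling, if it marks one, and the population cannot be told apart.

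Interleukins are secreted proteins through which leukocytes, endothelium, epithelium and fibroblasts signal to each other. Those of the IL-1 family bind receptors that signal through MYD88 and IRAK kinases to NF-kappaB, while most others bind receptors that signal through JAK kinases and STAT transcription factors. Many receptors pair a chain that binds the ligand with a shared signalling chain, such as IL6ST (gp130) for the IL-6 group, IL2RG (the common gamma chain) for the IL-2 group and IL10RB for the IL-10 group. In the endometrium these signals take part in leukocyte recruitment, the response to bacteria after calving and the preparation for implantation.

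Levels are given as FPKM, in which the fragments of a gene are divided by its transcript length and by library size, so they can be set side by side between genes. No counts were used; from the spacing of the lowest FPKM, depth was estimated as 12.5 to 22.6 (SP) and 23.8 to 38.9 (MP) times 1000000 fragments. One fragment of a transcript of 1 kb was thus worth up to 0.0800 FPKM in SP, which limits statements on interleukins near 0 there. Markers of stromal fibroblasts, the cell type that the preparation is named for, summed to 292 to 491 FPKM in SP and 3105 to 11376 FPKM in MP over 12 genes (most abundant: DCN and COL1A2). Endothelial markers summed to 1766 to 2702 FPKM in SP and 189 to 976 FPKM in MP over 15 genes (EMCN and KDR). Myeloid markers summed to 123 to 146 and 685 to 1236 FPKM over 13 genes (FCER1G and C1QA), T and NK cell markers to 0.611 to 3.94 and 83.7 to 264 FPKM over 13 genes (GZMB and NKG7), and mast cell markers to 28.4 to 63.8 and 430 to 1004 FPKM over 8 genes (TPSB2 and CPA3), in SP and MP respectively. In SP most of the myeloid sum was CD14 (86.9 to 105 FPKM) and most of the mast cell sum KIT (13.5 to 32.3 FPKM) and GATA2 (13.5 to 29.8 FPKM), none of which passed the test. Of the T and NK cell markers CD8B, KLRK1 and CD7 were listed at 0 in all SP libraries, and among myeloid markers AIF1, ITGAM and SPI1 in at least 1. MP replicate 3 had the highest endothelial sum of the MP libraries. The other lists were pericyte and smooth muscle (338 to 540 and 1195 to 1976 FPKM over 10 genes; TAGLN and ACTA2), epithelial (223 to 1972 and 1108 to 5085 FPKM over 11 genes; CLDN4 and EPCAM) and B and plasma cell markers (1.76 to 5.10 and 8.60 to 168 FPKM over 7 genes; JCHAIN and MZB1). In bulk samples fewer cells of a type and less RNA per cell cannot be told apart.

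**Figure D1:**
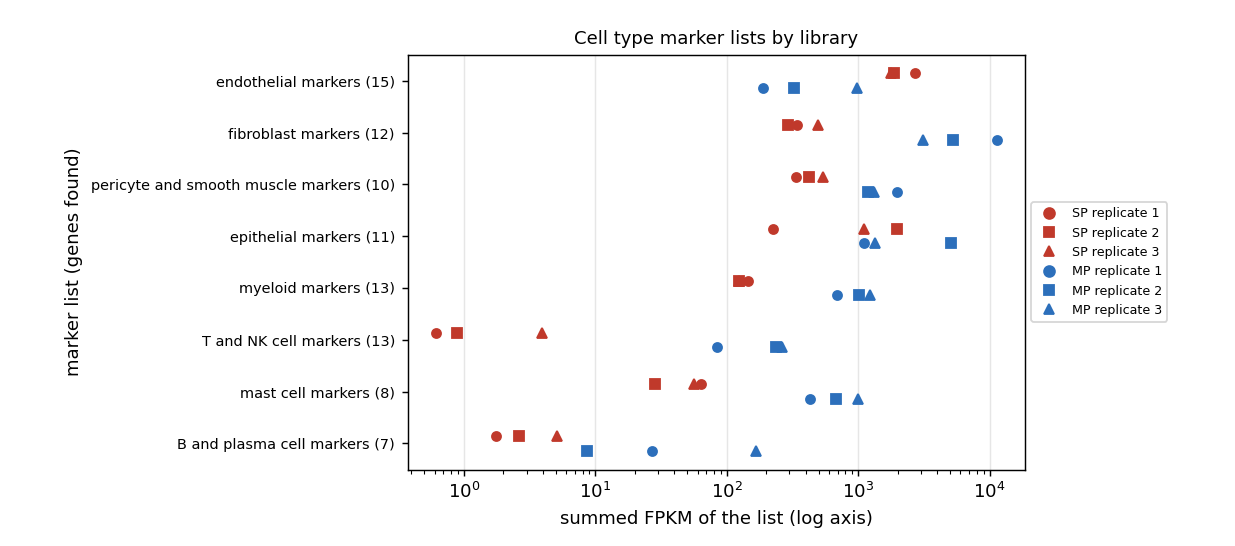
Summed FPKM (log axis) of 8 lists of cell type markers in each library, with the number of genes found in brackets; red marks SP, blue MP, and the symbol the replicate. Endothelial sums lie higher in SP (1766 to 2702) than in MP (189 to 976), the epithelial sums overlap, and the sums of the other 6 lists lie lower in SP.

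Which interleukin genes differed between SP and MP was asked with a fit over all genes. Of the 83 genes, 32 reached 1 FPKM in at least 3 libraries and were tested, 10 others reached 1 FPKM in some library, and 41 never did, 13 of them listed at 0 throughout. Among them IL1R1, IL33, IL6ST, IL4R, IL15RA and IL20RA rose in SP, and IL1B, IL1RN, IL2RA, IL11RA, IL17D, IL10, IL18 and IL2RG fell (limma, Benjamini-Hochberg adjusted p under 0.05 over 12127 genes). These 14 calls are 43.8% of the tested interleukin genes, beside 39.2% called over all tested genes, with 20.5% higher and 18.7% lower in SP, so the share is near the background. The 3 SP and 3 MP values did not overlap for 16 of the 32, beside 54.8% of all tested genes. The median log2 fold change of the 32 was 0.41, beside 0.01 over all genes. IL2RA, IL17D and IL10 were under 1 FPKM in every SP library, which means that they could enter the test only by being higher in MP; without them 6 rose, 5 fell and the median was 0.44.

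The split depends on the scaling and on single libraries. When each library was rescaled to the same sum of FPKM (1e+06), which moved the median of all genes to 0.20, 11 interleukin genes were higher and 7 lower. Without MP replicate 3, the MP library with most endothelial marker RNA, 12 were higher and 8 lower, and on leaving out SP replicate 1, 2 or 3 or MP replicate 2 only 3 were higher and 6 or 7 lower. Without MP replicate 1 the counts were 4 and 7.

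**Figure D2:**
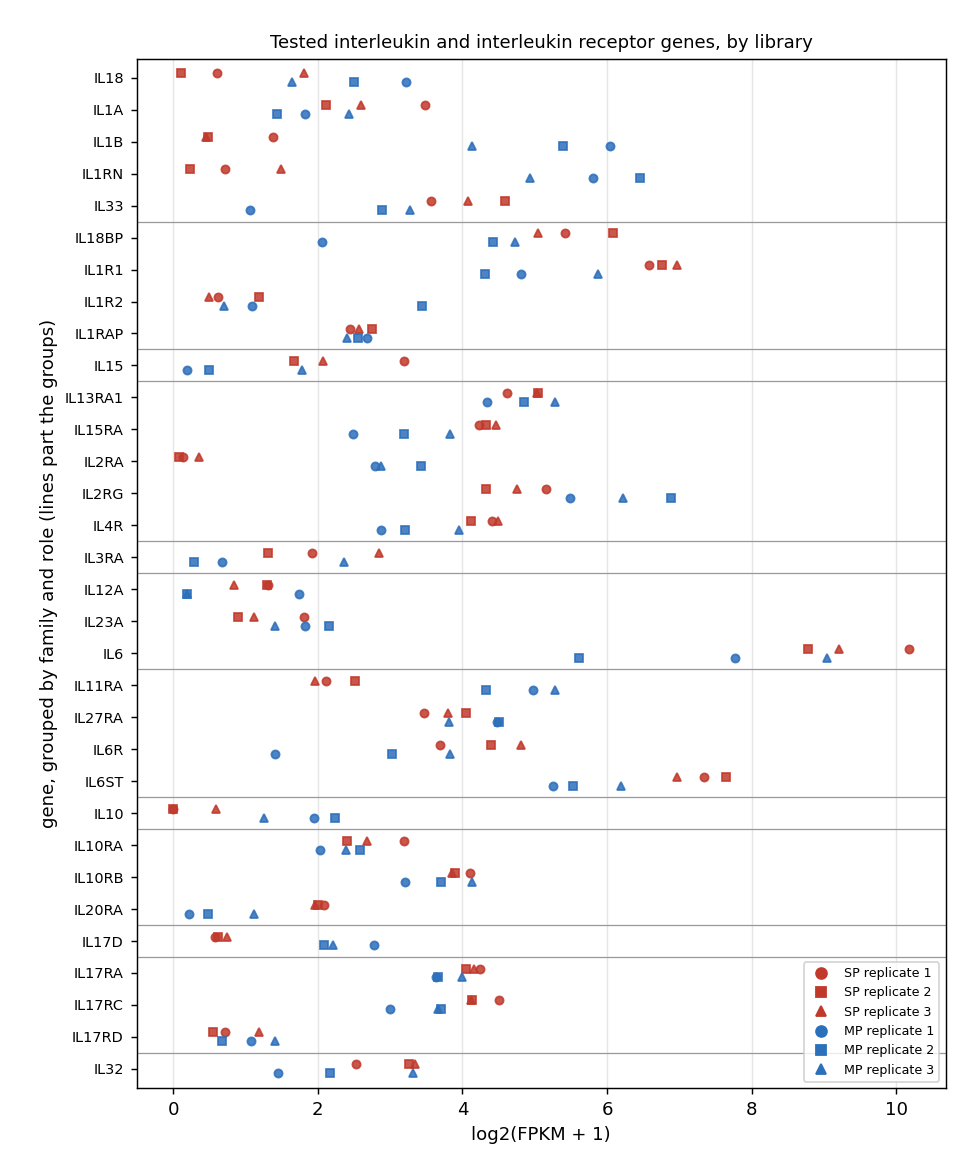
The 32 tested interleukin and receptor genes, with log2(FPKM + 1) on the x axis, each row a gene and each point a library (red SP, blue MP, symbols for replicates 1 to 3); horizontal lines part families and roles. IL6 has the highest values, and IL1B, IL1RN, IL2RA and IL11RA show the widest gaps between SP and MP.

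**Figure D3:**
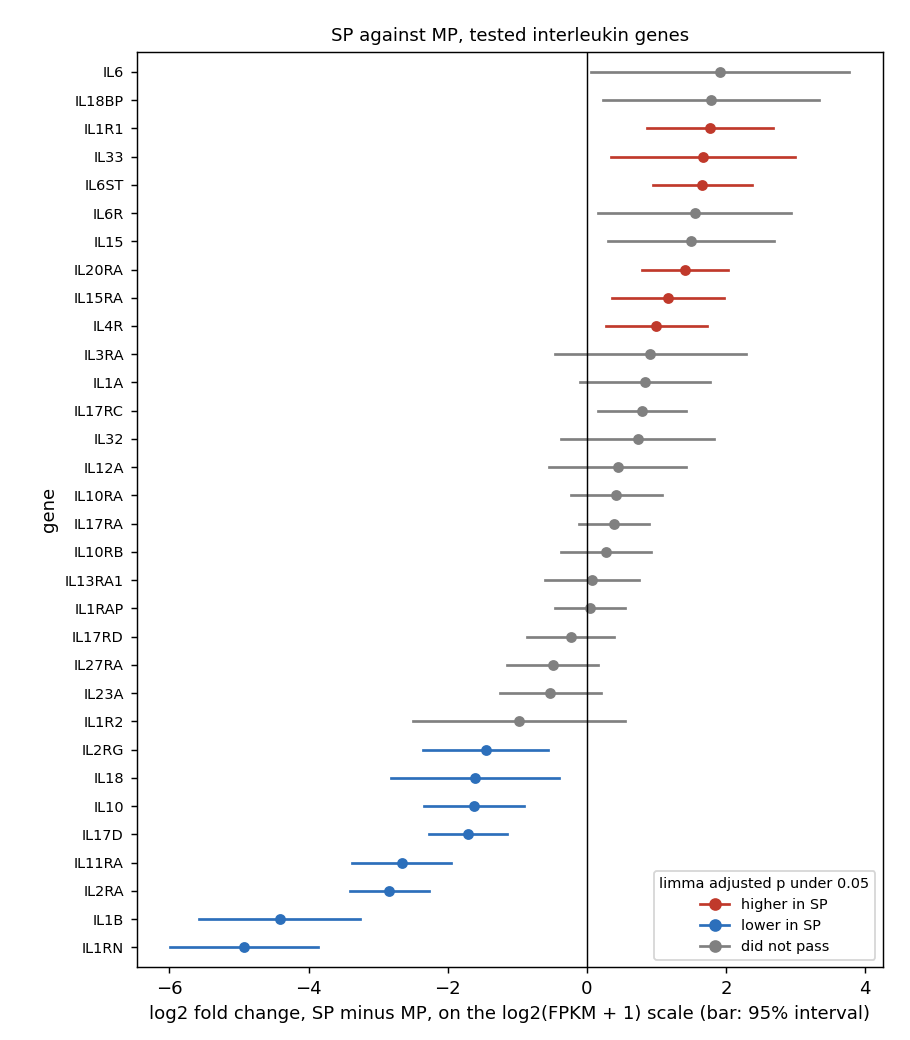
Log2 fold change of SP minus MP on the log2(FPKM + 1) scale for the 32 tested genes, with 95% intervals from limma; red rose, blue fell and grey did not pass. The values run from −4.92 for IL1RN to 1.91 for IL6, whose wide interval leaves it short of the adjusted threshold.

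Among ligands of the IL-1 family, the inflammatory cytokine IL1B (chromosome 11, 46543407 to 46551922, build ARS-UCD1.2) was far lower in SP. In replicates 1 to 3, in this order here and below, SP held 1.60, 0.395 and 0.373 FPKM and MP 65.1, 40.8 and 16.6 FPKM. The groups lay far apart, and MP replicate 3 was the lowest of the MP libraries. The log2 fold change was −4.42 ± 0.50 (SE; limma adjusted p = 0.00173). IL1RN (chromosome 11, 46775963 to 46837407), the secreted antagonist that occupies the IL-1 receptor without signalling, moved with it. It was at 0.635, 0.170 and 1.82 FPKM in SP and at 55.0, 87.0 and 29.5 FPKM in MP, again with a wide gap. Its log2 fold change was −4.92 ± 0.46 (SE; limma adjusted p = 0.000912). Both held in all 17 alternatives. Of 12 tested myeloid markers 10 fell in the same libraries, 5 of them with the direction fixed by the filter. C1QB, for example, was at 0.783 to 2.02 FPKM in SP and 91.3 to 116 FPKM in MP. CD68 did not pass, nor did CD14, which was at 105, 101 and 86.9 FPKM in SP and at 38.9, 48.8 and 104 FPKM in MP. Of 12 tested fibroblast markers 10 fell as well, 2 of them with the direction fixed by the filter. In MP replicates 1 to 3 the myeloid sums were 685, 1008 and 1236 FPKM and the fibroblast sums 11376, 5305 and 3105 FPKM. The part of either set of markers in the result was not tested.

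IL1A (chromosome 11, 46482552 to 46493533), the other agonist of the same receptor, did not follow IL1B. It stood at 10.2, 3.33 and 5.04 FPKM in SP and at 2.55, 1.71 and 4.37 FPKM in MP. SP replicate 2 lay under MP replicate 3, and IL1A did not pass, with a log2 fold change of 0.83 and a 95% interval from −0.11 to 1.77 (limma adjusted p = 0.134). The difference between IL1A and IL1B in their response was not tested. IL18 (chromosome 15, 22475959 to 22501557), a cytokine released after inflammasome activation that induces interferon gamma, fell in SP by a log2 difference of −1.61 ± 0.52 (SE), with limma adjusted p = 0.0422. Its values of 0.523, 0.0809 and 2.5 FPKM in SP and 8.28, 4.65 and 2.13 FPKM in MP overlapped, since SP replicate 3 lay above MP replicate 3. Of 16 alternatives 4 kept the call, with limma adjusted p between 0.0133 and 0.242. It was lost without SP replicate 1 or 2 or MP replicate 1 or 2 (limma adjusted p = 0.117, 0.124, 0.119 and 0.0975).

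IL33 (chromosome 8, 38472457 to 38601092), an alarmin stored in the nuclei of endothelial, epithelial and stromal cells, went the other way. It was at 10.8, 23.2 and 15.9 FPKM in SP and at 1.09, 6.36 and 8.72 FPKM in MP. All SP values lay above all MP values, the smallest gap being between SP replicate 1 and MP replicate 3. The log2 fold change was 1.67 ± 0.57 (SE; limma adjusted p = 0.0498), at the edge of the threshold. Of 17 alternatives 6 kept the call, with limma adjusted p between 0.0191 and 0.165. Leaving out SP replicate 1, 2 or 3 or MP replicate 1 or 2 ended it (limma adjusted p = 0.0720, 0.138, 0.111, 0.0778 and 0.0709). Endothelial markers rose in the same libraries, 14 of 15 tested, and their sum put the MP libraries in the same order as IL33. EGFL7 and ENG, which also rose, were lowest in MP replicate 2. The part of the endothelial markers in the result was not tested.

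Of the IL-1 family receptors, IL1R1 (chromosome 11, 6825376 to 6915249), the signalling receptor of IL-1 alpha and beta, was abundant and rose in SP. It stood at 94.9, 107 and 124 FPKM in SP and at 27.2, 18.8 and 57.7 FPKM in MP. The SP libraries lay within a narrow range, while MP replicate 3 was at the top of MP. The log2 fold change was 1.77 ± 0.39 (SE; limma adjusted p = 0.0122), and the call held without any single library (limma adjusted p of at most 0.0421). It was lost without replicate 1 or 2 of both groups (0.0805 and 0.0873). IL1RAP, the accessory chain that IL1R1 and the IL-33 receptor need to signal, was at 4.43, 5.72 and 4.91 FPKM in SP and at 5.40, 4.87 and 4.31 FPKM in MP. The groups overlapped throughout, and the 95% interval of its log2 fold change of 0.04 ran from −0.47 to 0.54. Under the 4 settings that turned its sign the value stayed within 0.05 of 0. IL1R2, a decoy that binds IL-1 without signalling, stood at 0.529, 1.28 and 0.406 FPKM in SP and at 1.13, 9.81 and 0.620 FPKM in MP. Only MP replicate 2 was high, and it did not pass (limma adjusted p = 0.262).

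IL1RL1, the receptor of IL-33 known as ST2, was listed at 0, 0.0475 and 0.0625 FPKM in SP and at 1.68, 0.334 and 0.631 FPKM in MP. It lay under 1 FPKM in every library but 1 and was not tested. IL18R1, the binding chain of the IL-18 receptor, ranged from 0.0294 to 0.0985 FPKM in SP and from 0.381 to 0.539 FPKM in MP. The files list the same locus for IL18R1 and IL1RL1 (chromosome 11, 7068050 to 7193875), a span that can cover several genes, and give each its own values. How far reads of the pair were told apart is not shown. IL18BP, a secreted protein that captures IL-18, was at 41.9, 66.7 and 32.0 FPKM in SP and at 3.16, 20.4 and 25.5 FPKM in MP. The groups did not overlap, but the log2 fold change of 1.78 ± 0.67 did not pass (SE; limma adjusted p = 0.0676); it passed without MP replicate 3 (0.0355). Its listed locus (chromosome 15, 51553742 to 51642293) is also that of RNF121, which stood at 6.95 to 10.8 FPKM in SP and 9.51 to 15.0 FPKM in MP.

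**Figure D4:**
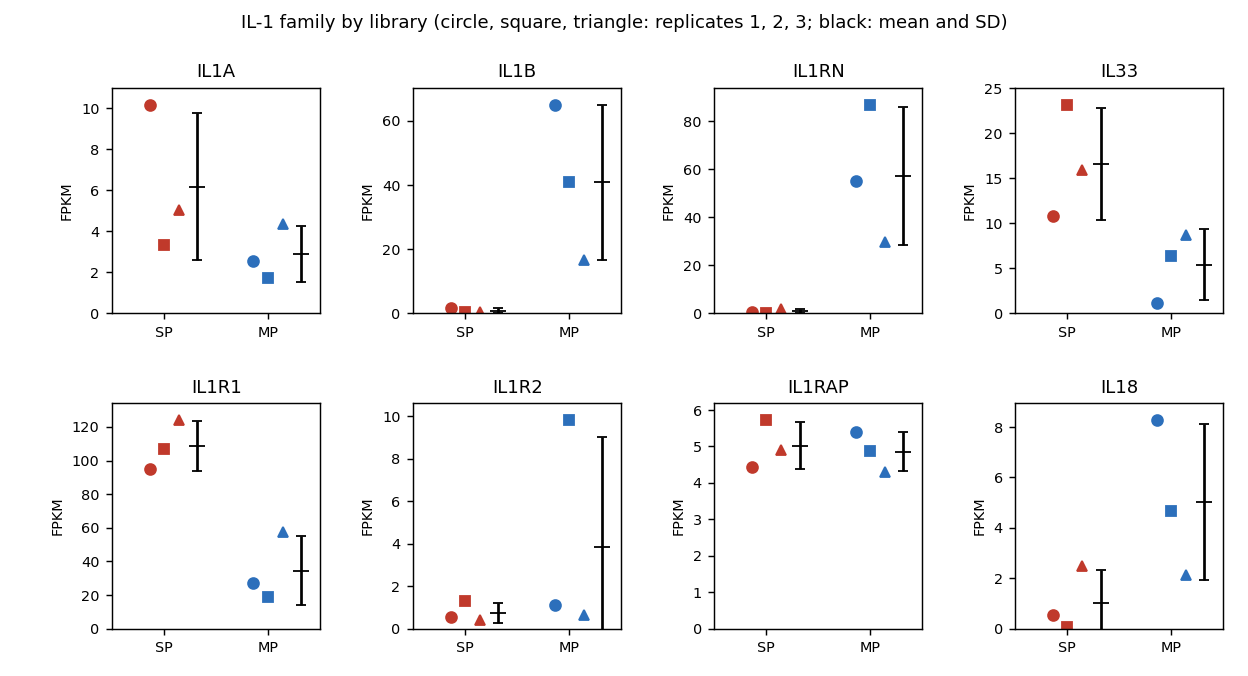
FPKM of 8 IL-1 family genes by library (red SP, blue MP; circles, squares and triangles for replicates 1, 2 and 3), with the mean and SD of each group in black, error bars being cut at 0. IL1B and IL1RN are near 0 in SP, IL1R1 and IL33 lie higher in SP, and IL1RAP overlaps.

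The IL-6 group turns on IL6ST, the shared signalling chain of the receptors for IL-6, IL-11, LIF, oncostatin M and CNTF. IL6ST (chromosome 20, 23191875 to 23253568) was at 161, 198 and 125 FPKM in SP and at 37.1, 45.3 and 71.9 FPKM in MP. Each SP library lay above each MP library, and it had the highest level of all the receptor genes in SP. Its log2 fold change was 1.66 ± 0.31 (SE; limma adjusted p = 0.00698), held without any single library and lost only without replicate 1 or 2 of both groups among the 17 alternatives (limma adjusted p = 0.0608 and 0.0781). Of the tested receptor chains with an IL name that pair with it, 1 fell and IL6R and IL27RA did not pass. IL11RA (chromosome 8, 76017708 to 76027359), the binding chain for IL-11, was at 3.33, 4.71 and 2.89 FPKM in SP and at 30.4, 19.1 and 37.8 FPKM in MP. The lowest MP value was well above the highest SP value, and the log2 fold change, −2.66 ± 0.31 (SE; limma adjusted p = 0.00184), held in all 17 alternatives. IL6R (chromosome 3, 16121720 to 16173990), the binding chain for IL-6, was at 11.9, 20.1 and 27.0 FPKM in SP and at 1.64, 7.14 and 13.2 FPKM in MP. SP replicate 1 lay under MP replicate 3, and the log2 fold change of 1.55 ± 0.60 did not pass (SE; limma adjusted p = 0.0722), though it passed without MP replicate 3 (0.0228). Fibroblast markers fell in the same libraries as IL11RA, 10 of 12 tested, 2 of them with the direction fixed by the filter. Their sums in MP replicates 1 to 3 were 11376, 5305 and 3105 FPKM, lowest in replicate 3, where IL11RA was highest. Endothelial markers rose, and the part of both lists in these results was not tested.

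IL6 itself (chromosome 4, 31454775 to 31459143), a cytokine of inflammation and of the acute phase response, had the highest level of the 83 genes in each library but MP replicate 2, where IL2RG and IL1RN exceeded it. It stood at 1157, 437 and 588 FPKM in SP and at 218, 47.8 and 526 FPKM in MP. MP replicate 3 lay above SP replicate 2, so the groups overlapped. IL6 made up 68.1%, 41.9% and 52.3% of the summed FPKM of the 83 genes in SP and 35.1%, 8.06% and 50.6% in MP. With a log2 fold change of 1.91 and a 95% interval from 0.05 to 3.76 IL6 missed the adjusted threshold (limma adjusted p = 0.0921). It passed in 3 of 17 alternatives, among them without MP replicate 3 (limma adjusted p = 0.0218). IL11 ranged from 0.306 to 0.656 FPKM in SP and from 0.256 to 1.53 FPKM in MP and was not tested.

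Receptors of the IL-6 group that carry no IL name were read from a list of partner genes, of which 18 were found and 13 tested. LIFR and OSMR, the chains that join IL6ST in the receptors for LIF and oncostatin M, rose, with log2 fold changes of 2.08 ± 0.49 and 1.90 ± 0.48 (SE; limma adjusted p = 0.0152 and 0.0194). LIFR was at 82.6, 57.9 and 47.4 FPKM in SP and at 7.09, 11.3 and 30.8 FPKM in MP, with no overlap. CNTFR, the binding chain for CNTF, fell as well (log2 fold change −1.80 ± 0.25 SE, limma adjusted p = 0.00322), with 0.253 to 0.618 FPKM in SP and 3.09 to 5.40 FPKM in MP. Thus 2 partner chains of IL6ST rose and 2, CNTFR and IL11RA, fell. Also lower were EBI3, a subunit of IL-27 and IL-35, CSF2RB, the shared beta chain of the receptors for IL-3, IL-5 and GM-CSF, and CSF1R, the receptor of CSF-1 and IL-34 and itself a myeloid marker. EBI3 had a log2 fold change of −2.47 ± 0.31, CSF2RB of −3.37 ± 0.38 and CSF1R of −2.92 ± 0.23 (SE; limma gave adjusted p = 0.00242, 0.00173 and 0.000607). CNTFR, EBI3, CSF2RB and CSF1R were under 1 FPKM in every SP library, which fixed their direction. In all 2 of 13 rose, 4 fell and 7 did not pass, a called share of 46.2% beside 39.2% over all tested genes; without SP replicate 1 none rose by limma, and without SP replicate 2 only 1.

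**Figure D5:**
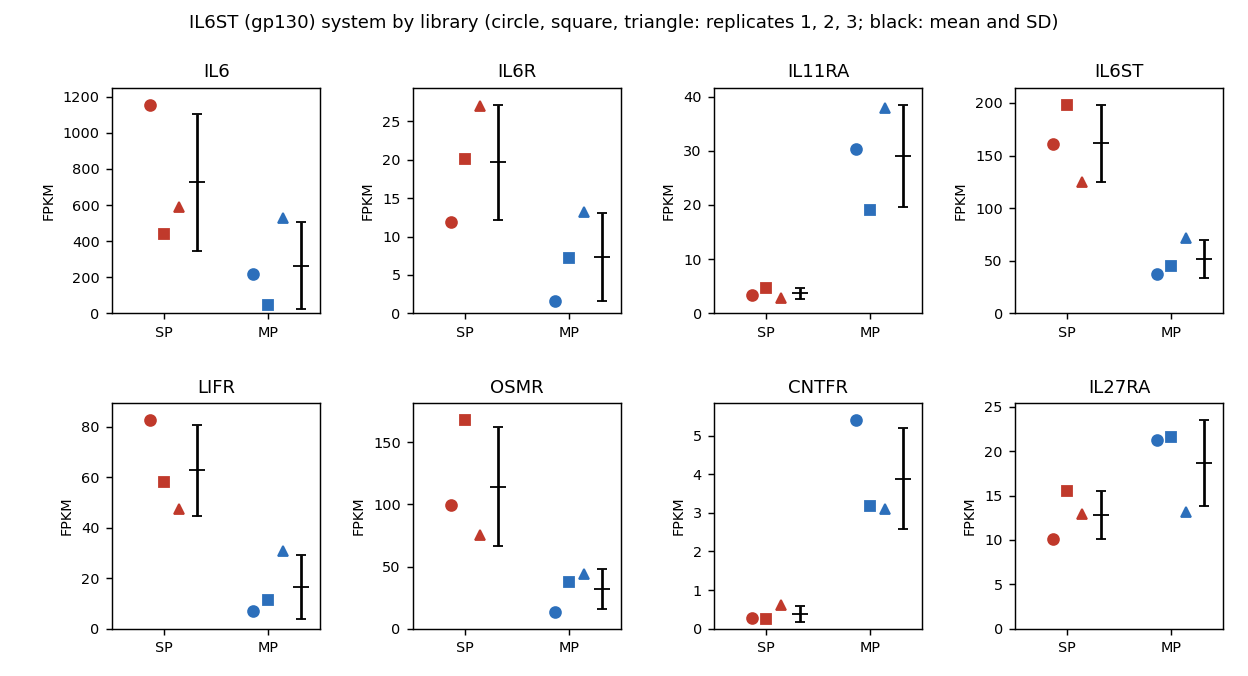
FPKM of IL6, of IL6ST and of chains that pair with it, by library (red SP, blue MP; circles, squares and triangles for replicates 1, 2 and 3), with the mean and SD of each group in black. IL6ST, LIFR and OSMR lie higher in SP, IL11RA and CNTFR lower, and IL6, IL6R and IL27RA overlap.

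Of the genes with an IL name in the IL-12 family, IL12A, IL23A and IL27RA were tested and none passed by limma, nor had any an unadjusted p under 0.05. IL12A (the p35 subunit of IL-12) was at 1.48, 1.46 and 0.798 FPKM in SP and at 2.34, 0.136 and 0.145 FPKM in MP, high in MP replicate 1 alone. Without that library it was higher in SP (limma adjusted p = 0.0278). IL23A, the p19 subunit of IL-23, ranged from 0.852 to 2.49 FPKM in SP and from 1.66 to 3.44 FPKM in MP, and its listed locus is also that of STAT2. IL12B, the subunit shared by IL-12 and IL-23, was listed at 0 in 5 libraries. IL27RA, the IL-27 receptor chain that pairs with IL6ST, was at 10.1, 15.5 and 13.0 FPKM in SP and at 21.3, 21.7 and 13.1 FPKM in MP, and did not pass (limma adjusted p = 0.190). The receptor chains IL12RB1, IL12RB2 and IL23R stayed under 0.2 FPKM in all libraries.

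In the IL-2 group the alpha and gamma chains of the high-affinity IL-2 receptor fell in SP. IL2RA (chromosome 13, 17455294 to 17500749), the alpha chain CD25 of activated and regulatory T cells, was at 0.0965, 0.0604 and 0.283 FPKM in SP and at 5.94, 9.71 and 6.33 FPKM in MP. Its log2 fold change, −2.84 ± 0.24 (SE; limma adjusted p = 0.000725), held in all 16 alternatives that tested it. The filter of the main fit had fixed its direction. IL2RG (chromosome X, 79521641 to 79525287), the common gamma chain, was at 34.8, 19.1 and 25.9 FPKM in SP and at 44.1, 117 and 73.8 FPKM in MP. The groups did not overlap, but unlike IL2RA it stayed well above 1 FPKM in SP. Its log2 fold change was −1.46 ± 0.39 (SE; limma adjusted p = 0.0225), a call lost without SP replicate 2 or 3 or MP replicate 2 (0.0707, 0.0597 and 0.0633). T and NK cell markers fell in the same libraries, 8 of 8 tested, 7 of them with the direction fixed by the filter. Their sum was 0.611 to 3.94 FPKM in SP and 83.7, 235 and 264 FPKM in MP. Of other tested markers, 10 of 12 myeloid, 10 of 12 fibroblast and 6 of 10 pericyte and smooth muscle markers fell. So did 4 of 6 mast cell and 2 of 3 B and plasma cell markers. The filter fixed the direction of 5, 2, 0, 2 and 2 of these. The part of any of these lists in the result was not tested. IL2RB, the beta chain, was at 0.0998 to 0.350 FPKM in SP and 0.737, 4.89 and 0.814 FPKM in MP. IL7R, the IL-7 receptor of lymphocytes, was at 0.0321 to 0.280 FPKM in SP and 2.15, 2.98 and 0.457 FPKM in MP. Neither passed the filter.

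IL15RA and IL4R, by contrast, rose in SP. IL15RA (chromosome 13, 17518453 to 17561283), which presents IL-15 to neighbouring cells, was at 17.7, 19.0 and 21.0 FPKM in SP and at 4.59, 8.15 and 13.2 FPKM in MP. The SP values lay close together and above all MP values. IL4R (chromosome 25, 24898782 to 24922680), the chain shared by receptors for IL-4 and IL-13, showed the same picture, with 20.3, 16.4 and 21.4 FPKM in SP and 6.30, 8.22 and 14.5 FPKM in MP. On the log2 scale IL15RA was higher by 1.17 ± 0.35 and IL4R by 1.00 ± 0.31 (SE), with limma adjusted p = 0.0320 and 0.0380. Each kept its call in 9 of 17 alternatives and lost it on leaving out SP replicate 1, 2 or 3 or MP replicate 1 or 2 (limma adjusted p from 0.0693 to 0.0916 for IL15RA and from 0.0647 to 0.109 for IL4R).

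The ligand IL15 (chromosome 17, 16050891 to 16143736), a growth factor of NK cells, was at 8.14, 2.18 and 3.21 FPKM in SP and at 0.138, 0.403 and 2.43 FPKM in MP. SP replicate 2 lay under MP replicate 3, and the log2 fold change of 1.49 ± 0.51 narrowly did not pass (SE; limma adjusted p = 0.0515); without MP replicate 3 it passed (0.0156). IL13RA1, which joins IL4R in the receptor for IL-13, was at 23.5, 31.9 and 31.6 FPKM in SP and at 19.2, 27.9 and 37.7 FPKM in MP. It showed no difference beyond the spread, with a 95% interval of its log2 fold change from −0.61 to 0.75. The ligands IL2, IL4, IL7, IL9 and IL21 stayed under 0.2 FPKM in every library.

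In the IL-10 group the ligand fell, with its direction fixed by the filter, and a receptor chain of its relatives rose. IL10 (chromosome 16, 4551372 to 4586748), a cytokine that restrains macrophages, was listed at 0, 0 and 0.509 FPKM in SP and was at 2.87, 3.73 and 1.39 FPKM in MP. Its log2 fold change was −1.62 ± 0.31 (SE; limma adjusted p = 0.00761), held in 14 of 16 alternatives and lost without replicate 1 or 2 of both groups (0.0686 and 0.0764). In the same libraries 10 of 12 tested myeloid markers (not CD14 and CD68) and 8 of 8 tested T and NK cell markers fell. The filter fixed the direction of 5 and 7 of these. In MP replicates 1 to 3 the myeloid sums were 685, 1008 and 1236 FPKM and the T and NK cell sums 83.7, 235 and 264 FPKM. Both were highest in replicate 3, where IL10 was lowest in MP. The part of these markers was not tested. IL20RA (chromosome 9, 74969083 to 75002224), a receptor chain for IL-19, IL-20, IL-24 and IL-26, was at 3.24, 2.99 and 2.88 FPKM in SP and at 0.165, 0.397 and 1.16 FPKM in MP. The log2 fold change was 1.41 ± 0.27 (SE; limma adjusted p = 0.00725), held without any single library and lost without replicate 1 or 2 of both groups (0.0571 and 0.0732). Its partner IL20RB was at 0.130 to 0.521 FPKM in SP and 0.612 to 0.841 FPKM in MP. The ligands IL20, IL24 and IL26 were listed at 0 in all libraries, and IL19 stayed under 0.4 FPKM. The IL-10 receptor chains IL10RA (4.28 to 8.17 FPKM in SP, 3.10 to 4.99 FPKM in MP) and IL10RB (13.5 to 16.2 and 8.24 to 16.6 FPKM) overlapped between the groups and did not pass (limma adjusted p = 0.259 and 0.457).

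In the IL-17 group 1 ligand fell, and none of the 3 tested receptor chains passed by limma, 1 of them (IL17RC) having an unadjusted p under 0.05. IL17D (chromosome 12, 35797670 to 35851779), a member of the IL-17 family expressed outside lymphocytes, was at 0.486, 0.542 and 0.680 FPKM in SP and at 5.85, 3.25 and 3.62 FPKM in MP. The log2 fold change, −1.71 ± 0.24 (SE; limma adjusted p = 0.00337), held in all 16 alternatives that tested it. As IL17D was under 1 FPKM in every SP library, the filter of the main fit had fixed its direction. Its listed locus is also that of EEF1AKMT1, which overlapped between the groups (7.38 to 11.5 FPKM in SP, 10.1 to 10.6 FPKM in MP). IL17A was listed at 0 throughout and IL17F in 5 libraries. The receptor chains IL17RA (15.6 to 17.9 FPKM in SP, 11.5 to 14.9 FPKM in MP) and IL17RC (16.4 to 21.7 and 7.004 to 12.1 FPKM), which together bind IL-17A and IL-17F, lay higher in each SP library than in each MP library. Neither passed (limma adjusted p = 0.182 and 0.0502), but the 95% interval of the log2 fold change of IL17RC ran from 0.17 to 1.43, and it passed in 4 of 17 alternatives. IL17RD, an inhibitor of FGF signalling, overlapped between the groups. IL17RB, the receptor of IL-25, was listed at 0, 0 and 0.0409 FPKM in SP and was at 1.11, 1.97 and 0.281 FPKM in MP; it was not tested.

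IL5 and IL13 were below the filter, and each was highest in MP replicate 2. IL5, the eosinophil growth factor, was listed at 0 throughout SP, against 0.521, 5.09 and 0.467 FPKM in MP. IL13, an inducer of mucus and fibrosis, was listed at 0, 0 and 0.411 FPKM in SP and at 1.87, 6.99 and 0 FPKM in MP, and shares its listed locus with RAD50. IL3RA, the binding chain for IL-3, was at 2.77, 1.47 and 6.19 FPKM in SP and at 0.595, 0.218 and 4.15 FPKM in MP. Replicate 3 was the highest in both groups, and it did not pass (limma adjusted p = 0.243), though it passed without MP replicate 3 (0.0337). IL32, an inflammatory protein of lymphocytes and endothelium, was at 4.76, 8.58 and 9.16 FPKM in SP and at 1.74, 3.50 and 8.998 FPKM in MP and did not pass (limma adjusted p = 0.249; 0.0347 without MP replicate 3). IL34, a ligand of CSF1R, was at 0.277 to 0.352 FPKM in SP and 2.72, 2.504 and 0.963 FPKM in MP. With no filter on low values IL34 and IL18R1 were called lower in SP (limma adjusted p = 0.0350 and 0.0128). These were the only calls among 38 interleukin genes added in that fit. Over all genes of that fit 18.8% were called, a share that includes the genes of the main test and so is no like background.

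The intracellular genes through which these receptors signal were read from 4 further lists. Of 21 JAK, STAT and SOCS genes, 8 rose, none fell by limma and 13 did not pass, with a median log2 fold change of 0.75. The called share was 38.1%, all of it higher in SP. Over all tested genes 39.2% were called in either direction and 20.5% higher in SP. JAK2, a kinase bound to IL6ST and CSF2RB, was at 52.1, 35.2 and 26.3 FPKM in SP and at 5.21, 7.29 and 12.1 FPKM in MP, so that it rose by 2.09 ± 0.36 in log2 units (SE; limma adjusted p = 0.00564). STAT5B and STAT5A rose by 1.16 ± 0.22 and 1.77 ± 0.41 (SE; limma adjusted p = 0.00782 and 0.0147). Among the others called were STAT2, STAT3, SOCS2 and the feedback inhibitor SOCS3, which stood at 597, 623 and 267 FPKM in SP and 231, 122 and 186 FPKM in MP. The count moved with single libraries. It was 2 without SP replicate 1, 5 without SP replicate 2, 4 without SP replicate 3, and 4 and 5 without MP replicates 1 and 2. Endothelial markers and interleukin receptors such as IL6ST rose in the same libraries.

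Of 12 tested genes of IL-1 processing and signalling, TAB2, IRAK3 and TRAF6 rose, PYCARD and IRAK4 fell and 7 did not pass, a called share of 41.7% beside 39.2% over all tested genes. TAB2, which links TRAF6 to the kinase MAP3K7, had a log2 fold change of 1.58 ± 0.24, and PYCARD, the inflammasome adaptor ASC, one of −1.29 ± 0.37 (SE; limma gave adjusted p = 0.00376 and 0.0276). IRAK3, an inhibitory member of the IRAK family, was at 9.96, 10.2 and 10.0 FPKM in SP and at 2.55, 5.45 and 5.88 FPKM in MP (limma adjusted p = 0.0288). CASP1, the protease that matures IL-1 beta and IL-18, was listed at 0 throughout SP, against 0.564, 1.06 and 0.147 FPKM in MP, below the filter. MYD88 overlapped between the groups (38.0 to 42.1 FPKM in SP, 22.6 to 42.1 FPKM in MP). The counts were 1 and 0 without SP replicate 1, 2 and 0 without SP replicate 2, 1 and 1 without SP replicate 3, 2 and 1 without MP replicate 1 and 2 and 0 without MP replicate 2. Of 4 tested genes of IL-17 signalling, NFKBIZ and TRAF3 rose and TRAF3IP2 and ZC3H12A did not pass. Their called share was 50%, all of it higher in SP, beside 20.5% called higher and 39.2% called in either direction over all tested genes. NFKBIZ, a nuclear cofactor of NF-kappaB induced by IL-1 and IL-17, was at 550, 252 and 303 FPKM in SP and at 55.1, 19.1 and 120.1 FPKM in MP, a rise of 2.76 ± 0.62 (SE; limma adjusted p = 0.0129). Of 6 adaptors of the IL-2 and IL-4 groups, GAB2 and SOS1 rose by 1.68 ± 0.31 and 0.96 ± 0.22 and IRS1 and IRS2, both under 1 FPKM in every SP library, fell by 0.78 ± 0.25 and 1.03 ± 0.30 (SE; limma adjusted p = 0.00660, 0.0135, 0.0389 and 0.0288). Both falls had their direction fixed by the filter and were lost without SP replicate 1, 2 or 3 or MP replicate 1 or 2. The other 2 adaptors did not pass, and the called share of the 6 was 66.7%, beside 39.2% over all tested genes.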

How the data were processed

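RNA of sorted SP and MP cells (3 libraries each) was sequenced after a stranded mRNA preparation, per the labels' protocols. Per the submitters' processing notes, cutadapt 2.5, HISAT2 2.1.0 and build ARS-UCD1.2 were used; for the counting tool, annotation and strand setting, nothing is given in the sources used here. Each deposited file holds FPKM per gene, per the file headers; no further scaling is stated. One row without a gene name, 0.184% to 1.91% of a library's values, was left out. An exact 0 can be a failed estimate and is written as listed at 0. Depth came from the lowest values in loci of 600 to 4000 bp, a step tested on simulated data.

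Groups and replicate numbers came from the titles. The 12127 genes that reached 1 FPKM in 3 or more of the 6 libraries were tested on log2(FPKM + 1), a scale that understates changes of low genes, with limma 3.58.1 in R 4.3.3 (eBayes with trend, two-sided, Benjamini-Hochberg over all tested genes, threshold 0.05) after a test on simulated data. Rose and fell refer to this test. Leave-one-out fits kept these genes. Partner and signalling genes and markers were read from 13 lists; up to 4 called genes of a signalling list by smallest p and the 2 most abundant of a marker list are named, and others named were chosen after their values were seen. One gene that this rule names is not reported here. The members and lists were chosen with earlier results of these data known. Chromosomes were read from accessions through the gene table of ARS-UCD2.0, which held all 83 symbols; positions are as the files list them, 1-based, and can span several genes: 12 tested interleukin genes share a listed locus with another row, and 4 with a tested gene (IL18BP, IL17D, IL23A and IL6ST).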

Additional observations from a re-analysis of the deposited data

How the results depend on the processing

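Of the 14 called interleukin genes, 5 (IL1RN, IL1B, IL2RA, IL11RA and IL17D) kept their call in each alternative that tested them, among 14 planned and 3 added after the data were seen (without replicate 1, 2 or 3 of both groups). For IL2RA and IL17D the filter of the main fit had fixed the direction. Over the 32 tested genes and all alternatives, 447 of 531 refits gave the same direction and side of the threshold, 53 lost a call, 22 gained one and 9 turned a sign, all 9 in genes that did not pass and near 0. These were IL13RA1 with quantile normalization (−0.00604), without SP replicate 2 (−0.000237), without MP replicate 1 (−0.171) and without replicate 1 of both groups (−0.0318), IL1RAP without SP replicate 2 (−0.0437), MP replicate 3 (−0.0305), replicate 2 of both groups (−0.0401) and replicate 3 of both groups (−0.0202), and IL10RB without replicate 1 of both groups (−0.0386). Leaving out single libraries gave −0.171 to 0.299 for IL13RA1 and −0.0437 to 0.111 for IL1RAP.

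With no filter on low values 3 of 70 interleukin genes were higher and 8 lower in SP. The median was −0.058, and 3906 of 20810 genes (18.8%) were called over all. At a mean of at least 5 FPKM 6 of 19 were higher and 4 lower, with 3332 of 7680 called over all. Rescaled to a sum of 1e+06, 11 of 32 were higher and 7 lower, with 4776 of 12127 called over all. The cause was not tested. Leaving out single libraries gave 3 to 12 higher, 6 to 8 lower, a median from 0.28 to 0.48 and 2617 to 4938 calls over all genes. Without replicate 1 or 2 of both groups limma called 0 higher (7 and 5 at an unadjusted p under 0.05), 6 and 5 lower, and 1394 and 1065 of all genes, with fewer samples. With the replicate number as a block 10 interleukin genes were higher and 7 lower: IL6, IL6R, IL18BP and IL3RA gained a call (limma adjusted p = 0.0433, 0.0165, 0.0491 and 0.0328) and IL18 lost it (0.0647). Deviations of same-numbered libraries from their group mean had r = 0.105, 0.533 and −0.0854 over 12127 genes. Not every library correlated best with its own number. With 3 libraries per group these r values depend on each other and cannot decide whether the numbers pair the samples. The main fit did not pair them, and a shared animal behind a number is not excluded by the labels. In SP replicate 1, the shallowest, 1 fragment in 1 kb is worth 0.0800 FPKM, so values near this level cannot be told from 0.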

Other observations

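Ratios of 2 interleukin genes within a library do not depend on the scaling of the library. Those given here were chosen after their values were seen. With 3 against 3 libraries an exact permutation test of log2 ratios cannot give p under 0.1, and no ratio passed. IL6R stood at 3.58, 4.27 and 9.33 times IL11RA in SP replicates 1 to 3 and at 0.0541, 0.374 and 0.348 times in MP replicates 1 to 3, so the more abundant binding chain beside IL6ST differed between the populations in every library. IL1A stood at 6.35, 8.43 and 13.5 times IL1B in SP and at 0.0392, 0.0419 and 0.263 times in MP. The antagonist IL1RN stood at 0.396, 0.431 and 4.87 times IL1B in SP and at 0.845, 2.13 and 1.78 times in MP, and these ranges overlapped.

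Of the 6 interleukin genes that rose in SP, IL33, IL6ST, IL4R, IL15RA and IL20RA had their lowest MP value in replicate 1 and their highest in replicate 3, the order of the endothelial sums (189, 324 and 976 FPKM), as had 39.6% of all genes that rose. IL1R1 was lowest in MP replicate 2. What this shared order comes from was not tested.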
